A study of Homo sapiens with 12 samples.

Results

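The 43 genes described here code for cathepsins, other lysosomal enzymes and membrane proteins, and the machinery of autophagy, and they are the rows of the deposited FPKM table whose gene name is on a list of such genes. They are 43 of 60671 genes in the table. Averaged over the 12 libraries, 39 of them reached an FPKM of 1 and entered the tests, out of 11591 genes tested in all. CTSS, CTSW, LIPA and TFEB fell below that level and are given by their values only.

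RNA was sequenced from the line labelled Jurkat, which was derived from a human T cell leukemia, in 4 groups of 3 libraries. The control cells (NC) are labelled WT, while the methods of the study describe controls that carry a GFP vector. The PTPN21 cells overexpressed the protein tyrosine phosphatase PTPN21 from a lentiviral construct with an SFFV promoter and a FLAG tag, and neither the labels nor the methods describe a single clone. Each was treated for 48 h with vincristine (VCR), a drug that blocks microtubule assembly, or with DMSO, the solvent, so that NC+VCR and NC+DMSO are the control pair, and PTPN21+VCR and PTPN21+DMSO the overexpression pair. The dose of VCR in these libraries is not stated in the labels. The study asked how PTPN21 overexpression alters the response to VCR. For RNA sequencing, the methods describe only the VCR-treated groups, with 3 replicates in each. They say in general that independent experiments were done 3 times. Whether the libraries came from separate cultures is not stated, so p-values measure only the spread between these libraries, which may be technical.

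The FPKM of PTPN21 was 0.0212 to 0.0934 in NC+DMSO, 0.160 to 0.569 in NC+VCR, 7.93 to 10.5 in PTPN21+DMSO and 4.34 to 6.53 in PTPN21+VCR. Each PTPN21 library thus lay above every NC library, which bears on the construct named in the labels but not on the treatment. The estimated depth was 14300000 to 16000000 fragments in NC+DMSO and 16800000 to 18000000 in NC+VCR. It was 22100000 to 23700000 in PTPN21+DMSO and 20100000 to 22100000 in PTPN21+VCR. Depth and construct cannot be told apart, and in NC cells depth and VCR cannot be told apart either. Mitochondrially encoded genes held 9.27% to 11.7% of the summed FPKM with DMSO and 6.21% to 7.89% with VCR, and the part of this in the VCR results was not tested. The label T lymphocyte was not borne out by its defining markers. Of 10 T lymphocyte markers, 4 (CD247, LCK, CD28 and CD5) were listed at 0 in all libraries, 9 had a mean FPKM under 1, and CD3D alone was above that level. The summed FPKM of the 10 markers was 62.2 to 96.4 in NC+DMSO, 117 to 141 in PTPN21+DMSO, 109 to 133 in NC+VCR and 108 to 113 in PTPN21+VCR. Of 8 markers of monocytes and macrophages, 3 had a mean FPKM of at least 1 (LYZ, ITGAM and FCGR1A), with summed FPKM of 15.2 to 21.3, 13.6 to 14.3, 16.0 to 20.4 and 19.2 to 22.3 in the same order of groups. No other name is given to these cells, and the part of these markers in the results below was not tested. In bulk RNA, fewer cells of a type and less RNA per cell cannot be told apart.

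Lysosomes are acidic compartments in which hydrolases break down proteins, lipids, sugars and nucleic acids. Cathepsins are their proteases, the V-ATPase is the proton pump that keeps them acidic, and LAMP proteins line their membrane. In autophagy, a double membrane encloses cytoplasm and later fuses with the lysosome. ULK1 and beclin 1 start its formation, and the enzymes ATG7, ATG3 and the ATG12-ATG5 conjugate attach proteins of the ATG8 family (LC3 and GABARAP) to its membrane, where receptors such as p62 (SQSTM1) bring cargo. TFEB and TFE3 are transcription factors known to drive many of these genes through a short promoter sequence, the CLEAR element.

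The promoters of the members were searched for the letters GTCACGTG on either strand (CACGTGAC when read on the other strand), the palindromic core of a CLEAR element with its flank. Many of these genes are known to be driven through this element, as said above. The share of matches therefore describes the list and is not independent of it. Overlapping matches on opposite strands were counted as 1. RefSeq promoter windows (250 bases before to 50 after the start, GRCh38.p14) were at hand for 34 of the 43 members, and 7 of the 34 (20.6%) held a match. The share was 18.9% (18 of 95) among the other lysosome and autophagy genes described below and 2.93% (800 of 27305) among all genes with a promoter window. The core CACGTG alone was found in 8 of the 34 members and in 8.77% of all genes. The matching stretches follow from 5′ to 3′ on the strand of the gene, with the matches in capitals.
LAMP1 (chr13:113297025-113297247, plus strand): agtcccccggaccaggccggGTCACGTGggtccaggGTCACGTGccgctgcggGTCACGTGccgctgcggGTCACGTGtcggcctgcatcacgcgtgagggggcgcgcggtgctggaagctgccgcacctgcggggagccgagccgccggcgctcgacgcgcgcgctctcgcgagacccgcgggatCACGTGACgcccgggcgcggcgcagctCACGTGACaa
GAA (chr17:80101483-80101577, plus strand): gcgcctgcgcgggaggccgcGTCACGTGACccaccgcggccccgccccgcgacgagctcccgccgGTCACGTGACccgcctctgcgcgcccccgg
CTSA (chr20:45891271-45891334, plus strand): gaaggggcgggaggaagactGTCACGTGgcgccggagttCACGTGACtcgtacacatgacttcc
MCOLN1 (chr19:7522561-7522623, plus strand): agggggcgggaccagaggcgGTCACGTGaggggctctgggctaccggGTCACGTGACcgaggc
ATG3 (chr3:112561950-112562002, minus strand): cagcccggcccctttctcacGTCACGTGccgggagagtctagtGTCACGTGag
CTSD (chr11:1763947-1763994, minus strand): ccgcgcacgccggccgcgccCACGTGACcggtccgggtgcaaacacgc
ATP6V0D1 (chr16:67481191-67481238, minus strand): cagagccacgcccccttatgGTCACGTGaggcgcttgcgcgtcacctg
LAMP1 held 6 matches, GAA, CTSA, MCOLN1 and ATG3 held 2 each, and CTSD and ATP6V0D1 held 1 each. A match describes the letters of the window and does not show that a factor binds there.

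The members differed widely in level. On the FPKM scale, which corrects for gene length and so allows genes to be compared, the highest means over all 12 libraries were those of CTSH (126), CD63 (125), CTSL (123), PSAP (107) and ATG3 (106). CTSH is an aminopeptidase and CTSL an endopeptidase of the cathepsin family, CD63 is a tetraspanin of late endosomes, and PSAP is the precursor of the saposins, which help hydrolases to reach their lipid substrates. CD63 ranged from 106 to 128 in NC+DMSO, 115 to 138 in PTPN21+DMSO, 108 to 118 in NC+VCR and 127 to 151 in PTPN21+VCR. CD63 in PTPN21+VCR lay above NC+VCR, with no overlap, while the other groups overlapped. In that comparison 22.5% of all genes showed no overlap. The CD63 difference did not pass the test described below (log2 fold change 0.31, SE 0.115, limma adjusted p = 0.186). PSAP ranged from 86.5 to 160, 64.0 to 137, 74.3 to 127 and 78.2 to 131 in the same order, and its groups overlapped throughout. The order of CTSH, CD63 and CTSL was not the same in each group, and their overall means differed by less than the SD of CTSH in PTPN21+DMSO (34.4).

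Among the low members, the aspartic protease CTSD had a mean of 6.44 FPKM, the glucosidase GAA 2.07 and the kinase ULK1 1.07. The lipase LIPA was listed at 0.184 in 1 NC+DMSO library and at 0 in the others. CTSW, a cathepsin of cytotoxic lymphocytes, was listed at 0 in all NC libraries and at 0 to 0.332 in the PTPN21 libraries. CTSS ranged from 0.0988 to 1.69 FPKM over the 12 libraries. The summed FPKM of the 43 members was 1217 to 1441 per library, or 0.194% to 0.277% of the library sum.

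**Figure D1:**
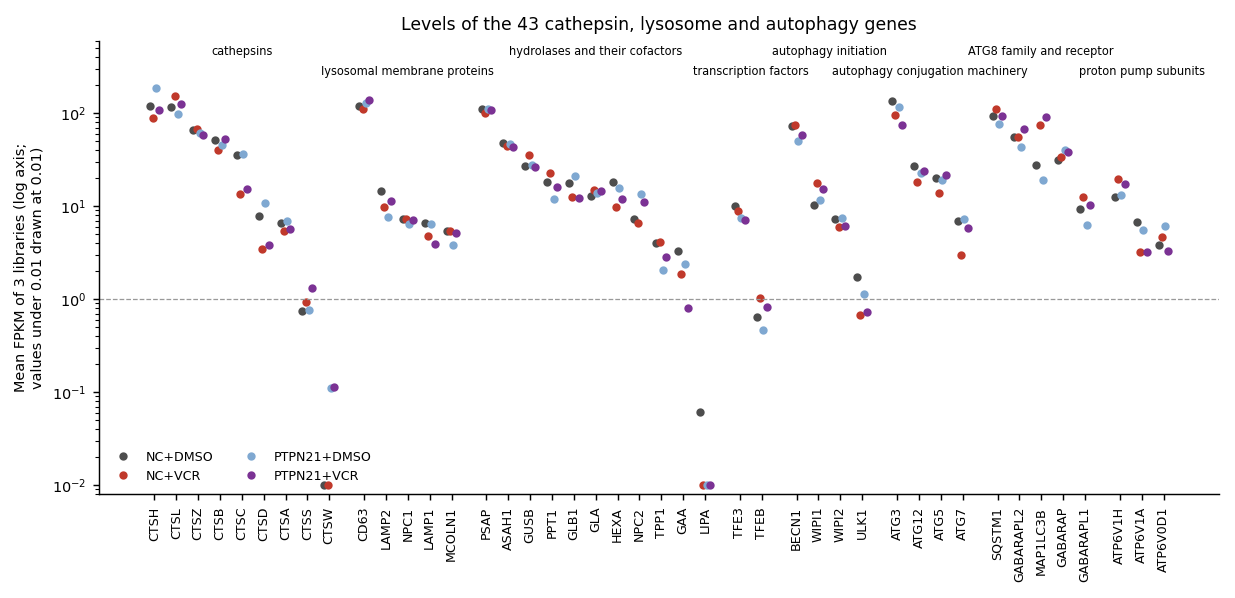
Mean FPKM of the 43 members in the 4 groups (3 libraries each) on a log axis, ordered by role and by level, with the minimum for testing at 1 as a dashed line. CTSH, CD63, CTSL, PSAP and ATG3 lie near 100, and CTSS, CTSW, LIPA and TFEB lie at or under 1 on average.

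In control cells, VCR was compared with DMSO to see how the drug alone altered these genes. On the log2(FPKM + 1) scale, with limma and Benjamini-Hochberg adjustment over all genes tested, 11 of 39 members (28.2%) passed an adjusted p of 0.05, against a background of 36.2% of all genes. Of these, 4 were higher in NC+VCR (background 7.91%) and 7 were lower (background 28.3%). The share of members that passed was thus no higher than that of all genes. The median log2 fold change was -0.12 over the members and -0.36 over all genes tested, and 24 of 39 members lay above the median of all genes. No overlap between the groups was seen for 16 members, where 44.1% of all genes showed no overlap.

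In PTPN21 cells, the same comparison gave 11 of 39 members past the threshold, against 28.5% of all genes. Here too 4 were higher (background 9.22%) and 7 were lower (background 19.3%), with a median of -0.04 over the members and -0.17 over all genes. The groups did not overlap for 20 members, where 50.4% of all genes showed no overlap. CTSC, CTSL, ATG3, MAP1LC3B and ATP6V1A passed in both cell types, which is 5 of the 11 calls in each, and each had the same direction in both. The share of all genes that passed in both cell types was not counted, so this number has no background beside it.

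These directions are relative to the scaling of the deposited values. Median ratio scaling moved the median of all genes from -0.36 to -0.03 in NC cells and from -0.17 to -0.02 in PTPN21 cells. The members past the threshold were then 9 higher and 2 lower in NC cells, and 6 higher and 5 lower in PTPN21 cells. Quantile normalization gave 7 higher and 2 lower in NC cells, and 7 higher and 5 lower in PTPN21 cells. TPM scaling gave 2 higher and 10 lower, and 2 higher and 7 lower. The members named below as higher or lower kept that direction under each of these scalings, though not always the call. Under median ratio scaling or quantile normalization the calls of HEXA, ULK1, ATG3, ATG5, ATG7 and ATP6V1A in NC cells and of GAA and ATP6V1A in PTPN21 cells were lost, and under TPM scaling those of CTSL in both cell types, MAP1LC3B in NC cells and SQSTM1 in PTPN21 cells.

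**Figure D2:**
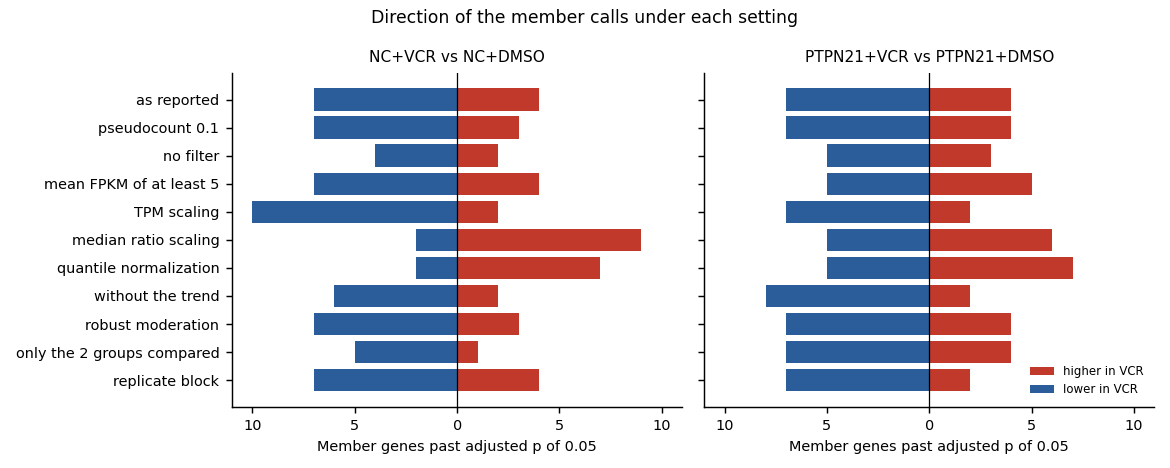
Number of members past an adjusted p of 0.05 in limma under each setting, with those higher in VCR to the right of 0 and those lower to the left, for NC cells (left panel) and PTPN21 cells (right panel). In NC cells 4 higher and 7 lower as reported became 9 higher and 2 lower under median ratio scaling.

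The counts by role that follow stand against the same shares of all genes, with VCR 7.91% higher and 28.3% lower in NC cells, and 9.22% higher and 19.3% lower in PTPN21 cells. A role holds few members, so that a single call moves its share widely.

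Of the 9 cathepsins, 7 were tested. CTSL rose and CTSC fell with VCR in both cell types, and CTSD and CTSH also fell in PTPN21 cells.

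CTSC (ENSG00000109861, chromosome 11 from 88293592 to 88337787 on the minus strand in GENCODE release 29, GRCh38) codes for cathepsin C, a dipeptidyl peptidase that activates serine proteases of granules. Its FPKM was 38.4, 36.1 and 31.6 in NC+DMSO, 10.0, 17.7 and 13.3 in NC+VCR, 40.8, 33.1 and 35.1 in PTPN21+DMSO and 14.8, 16.1 and 15 in PTPN21+VCR. All 6 VCR libraries lay below all 6 DMSO libraries, and the NC and PTPN21 libraries overlapped within each treatment. The mean was 35.4 ± 3.48 (SD, n = 3) in NC+DMSO and 13.7 ± 3.84 (SD, n = 3) in NC+VCR. The log2 fold change with VCR was -1.34 (SE 0.181, limma adjusted p = 0.000239) in NC cells and -1.19 (SE 0.181, limma adjusted p = 0.000573) in PTPN21 cells. It passed under 22 of 22 alternatives in each.

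CTSL (ENSG00000135047, chromosome 9 from 87725519 to 87731393 on the plus strand) codes for cathepsin L, a cysteine endopeptidase that the study names. Its FPKM was 117, 122 and 109 in NC+DMSO, 161, 155 and 142 in NC+VCR, 84.9, 112 and 94.4 in PTPN21+DMSO and 133, 120 and 121 in PTPN21+VCR. The VCR libraries lay above the DMSO libraries in each cell type with no overlap. The log2 fold change with VCR was 0.39 (SE 0.117, limma adjusted p = 0.0221) in NC cells and 0.36 (SE 0.117, limma adjusted p = 0.0371) in PTPN21 cells. The call in NC cells was lost without NC+DMSO replicate 3, NC+VCR replicate 1 or NC+VCR replicate 2 (limma adjusted p up to 0.0645), and that in PTPN21 cells without PTPN21+DMSO replicate 1 or 3 or any 1 of the PTPN21+VCR replicates (limma adjusted p up to 0.141).

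The aspartic protease CTSD measured 12.3, 10.3 and 9.43 FPKM in PTPN21+DMSO and 4.97, 5.19 and 1.34 in PTPN21+VCR. In the control cells it measured 3.90, 9.49 and 9.96 FPKM with DMSO and 3.01, 2.18 and 5.14 with VCR, and here the groups overlapped through NC+DMSO replicate 1. The change on the log2 scale was -1.40 (SE 0.409, limma adjusted p = 0.0242) in PTPN21 cells and -0.95 (SE 0.409, limma adjusted p = 0.0890) in NC cells. Without NC+DMSO replicate 1 the latter was -1.32 (limma adjusted p = 0.0313). The call in PTPN21 cells was lost without PTPN21+VCR replicate 3, PTPN21+DMSO replicate 1 or PTPN21+DMSO replicate 2, with log2 fold changes of -0.94 at the least.

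CTSH was 118, 129 and 114 FPKM in NC+DMSO, 77.3, 89.0 and 96.8 in NC+VCR, 228, 166 and 171 in PTPN21+DMSO and 128, 123 and 74.7 in PTPN21+VCR. The level was highest in PTPN21+DMSO, which overlapped with no other group. VCR lowered it in PTPN21 cells by 0.82 on the log2 scale (SE 0.194, limma adjusted p = 0.00843), a call that held under 22 of 22 alternatives. In NC cells the log2 fold change was -0.46 (SE 0.194, limma adjusted p = 0.0849), and the groups did not overlap. Over 22 alternatives it ranged from -0.56 to -0.058 there (limma adjusted p up to 0.865). CTSA, CTSB and CTSZ did not pass in either cell type, with log2 fold changes between -0.25 and 0.30.

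**Figure D3:**
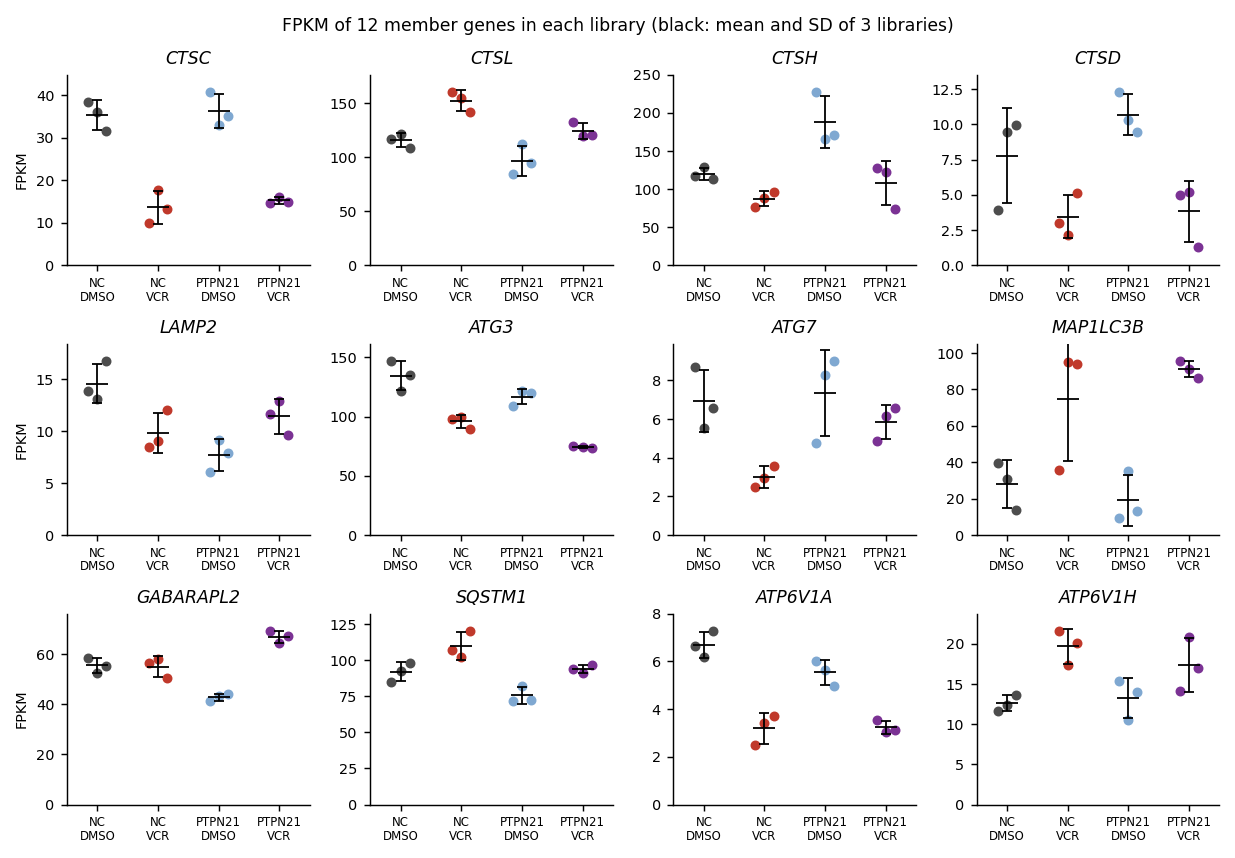
FPKM of 12 members in each of the 12 libraries (points), with the mean and SD of the 3 libraries of each group in black and each axis starting at 0. CTSC lies between 10.0 and 17.7 in all VCR libraries against 31.6 to 40.8 in all DMSO libraries, and LAMP2 is lower with VCR in NC cells and higher in PTPN21 cells.

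None of the 5 lysosomal membrane proteins passed with VCR in either cell type at an adjusted p of 0.05 in limma. An unadjusted p under 0.05 was seen for 1 of them in NC cells (LAMP2) and for 2 in PTPN21 cells (LAMP1 and LAMP2). Of all 11591 genes tested, 5379 had one in NC cells and 4628 in PTPN21 cells. LAMP2 (ENSG00000005893, chromosome X from 120427827 to 120469365 on the minus strand), which codes for a major glycoprotein of the lysosomal membrane, went in opposite directions. Its FPKM was 13.9, 13.1 and 16.7 in NC+DMSO, 8.46, 9.0 and 12 in NC+VCR, 6.07, 9.12 and 7.87 in PTPN21+DMSO and 11.6, 12.9 and 9.66 in PTPN21+VCR. All NC+VCR libraries lay below all NC+DMSO libraries, and all PTPN21+VCR libraries lay above all PTPN21+DMSO libraries. The log2 fold change with VCR was -0.53 (SE 0.196, limma adjusted p = 0.0515) in NC cells and 0.52 (SE 0.196, limma adjusted p = 0.0653) in PTPN21 cells.

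LAMP1, the other major lysosomal glycoprotein, had 6 motif matches in its promoter as shown above. It measured 6.75, 5.90 and 6.62 FPKM in PTPN21+DMSO and 5.14, 2.55 and 4.01 in PTPN21+VCR, with a log2 fold change of -0.63 (SE 0.225, limma adjusted p = 0.0525). NPC1, a cholesterol exporter, and MCOLN1, a calcium channel, had log2 fold changes between -0.03 and 0.35 in the 2 cell types.

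Of the 11 hydrolases and cofactors, 10 were tested. In NC cells HEXA fell and none rose, and in PTPN21 cells GAA and GLB1 fell and none rose. HEXA, the alpha subunit of beta-hexosaminidase, measured 18.6, 20.6 and 15.1 FPKM in NC+DMSO and 12.6, 5.30 and 11.8 in NC+VCR. The NC groups did not overlap, and the lowest value was that of NC+VCR replicate 2. This gave a log2 fold change of -0.88 (SE 0.253, limma adjusted p = 0.0183), and the call was lost without NC+DMSO replicate 2 (limma adjusted p = 0.0571). It passed without NC+VCR replicate 2, at a smaller -0.53 (limma adjusted p = 0.0350). In PTPN21 cells HEXA was 15.4, 16.8 and 15.1 FPKM with DMSO and 10.8, 13.2 and 11.9 with VCR, a log2 fold change of -0.37 (SE 0.253, limma adjusted p = 0.296).

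GAA, the lysosomal alpha-glucosidase, was 1.77, 3.69 and 1.62 FPKM in PTPN21+DMSO and 1.09, 0.998 and 0.307 in PTPN21+VCR. These groups did not overlap, and the log2 fold change was -0.88 (SE 0.299, limma adjusted p = 0.0443), a call that held in 9 of 21 alternatives and was lost without any 1 PTPN21 library or NC+DMSO replicate 1 or 2 (limma adjusted p up to 0.176). GLB1, the lysosomal beta-galactosidase, was 17.6, 19.7 and 26.1 FPKM in PTPN21+DMSO and 12.4, 13.5 and 11.1 in PTPN21+VCR. The fold change on the log2 scale was -0.71 (SE 0.176, limma adjusted p = 0.010) in PTPN21 cells and -0.47 (SE 0.176, limma adjusted p = 0.0544) in NC cells, with no overlap in either, and the call in PTPN21 cells was lost only without PTPN21+DMSO replicate 3 (limma adjusted p = 0.0514). In NC cells GLB1 ranged from -0.59 to -0.094 over 22 alternatives (limma adjusted p up to 0.724). The other 7 tested members of this class, which are GLA, GUSB, NPC2, PSAP, TPP1, PPT1 and ASAH1, did not pass in either cell type, and their log2 fold changes lay between -0.32 and 0.42.

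The transcription factors of the pathway were low to moderate in level, and TFE3, the only one tested, did not pass in any comparison. TFEB was 0.738, 0.780 and 0.408 FPKM in NC+DMSO, 0, 1.79 and 1.33 in NC+VCR, 0.174, 0.713 and 0.510 in PTPN21+DMSO and 0.788, 0.901 and 0.754 in PTPN21+VCR. TFE3 was 8.85, 8.61 and 12.5 FPKM in NC+DMSO, 13.1, 1.19 and 12.3 in NC+VCR, 9.38, 6.54 and 6.52 in PTPN21+DMSO and 7.06, 7.44 and 6.6 in PTPN21+VCR. NC+VCR replicate 2 stood far below the other libraries for TFE3. The log2 fold change with VCR in NC cells was -0.55 (SE 0.540, limma adjusted p = 0.446), and without that library it was 0.33.

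Of the 4 conjugation members, ATG3, ATG5 and ATG7 fell with VCR in NC cells, where 28.3% of all genes were lower, and ATG3 alone fell in PTPN21 cells, where 19.3% were. The 3 calls in NC cells were lost under median ratio scaling, and those of ATG5 and ATG7 also under quantile normalization. ATG3 (ENSG00000144848, chromosome 3 from 112532509 to 112562046 on the minus strand), the enzyme that passes LC3 to lipid, was 147, 122 and 135 FPKM in NC+DMSO, 98.3, 99.6 and 89.9 in NC+VCR, 109, 122 and 120 in PTPN21+DMSO and 75.5, 74.4 and 73.7 in PTPN21+VCR. The 3 libraries of each VCR group lay below their DMSO libraries, and PTPN21+VCR was the lowest group, with no overlap with NC+VCR. With VCR the log2 fold change was -0.48 (SE 0.103, limma adjusted p = 0.00386) in NC cells and -0.64 (SE 0.103, limma adjusted p = 0.000802) in PTPN21 cells. The first did not pass under median ratio scaling (limma adjusted p = 0.626), and the second passed under 22 of 22 alternatives.

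ATG7, the enzyme that activates ATG12 and the ATG8 proteins, was 8.69, 5.56 and 6.55 FPKM in NC+DMSO and 2.46, 2.97 and 3.57 in NC+VCR. In PTPN21 cells it was 4.79, 8.27 and 8.98 FPKM with DMSO and 4.86, 6.15 and 6.57 with VCR. The NC groups were apart and the PTPN21 groups overlapped. VCR thus gave a log2 fold change of -0.98 (SE 0.245, limma adjusted p = 0.00917) in NC cells and -0.25 (SE 0.245, limma adjusted p = 0.480) in PTPN21 cells. The call in NC cells was lost under median ratio scaling and quantile normalization (limma adjusted p up to 0.117).

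ATG5, part of the conjugate that places LC3 on membranes, was 21.1, 19.2 and 20 FPKM in NC+DMSO and 15.8, 11 and 14.3 in NC+VCR, with a log2 fold change of -0.53 (SE 0.190, limma adjusted p = 0.0445). This call passed under 8 of 22 alternatives and was lost without any 1 library of either DMSO group, NC+VCR replicate 2 or 3 or PTPN21+VCR replicate 3 (limma adjusted p up to 0.145). In PTPN21 cells ATG5 was 19.8, 19.1 and 18.4 FPKM with DMSO and 27.0, 15.7 and 22.0 with VCR, with a log2 fold change of 0.14 (SE 0.190, limma adjusted p = 0.632).

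Of the 4 initiation members, ULK1 fell and WIPI1 rose in NC cells (28.3% of all genes were lower and 7.91% higher), and none passed in PTPN21 cells. ULK1, the kinase that starts autophagy, was 1.76, 1.62 and 1.87 FPKM in NC+DMSO and 0.929, 0.404 and 0.694 in NC+VCR. Its log2 fold change was -0.73 (SE 0.224, limma adjusted p = 0.0253), and the call was lost without NC+DMSO replicate 1, NC+DMSO replicate 3 or NC+VCR replicate 2 (limma adjusted p up to 0.0797) and under median ratio scaling and quantile normalization. WIPI1, which binds a phospholipid of the forming membrane, was 8.15, 14.0 and 8.52 FPKM in NC+DMSO and 17.8, 13.3 and 21.7 in NC+VCR. These groups overlapped, and the log2 fold change was 0.74 (SE 0.229, limma adjusted p = 0.0251), lost without NC+DMSO replicate 1 or 3 or NC+VCR replicate 1 or 3 (limma adjusted p up to 0.0877). BECN1, the beclin 1 gene, had the highest level of the class. It was 72.6, 68.8 and 75.8 FPKM in NC+DMSO, 65.1, 70.6 and 90.3 in NC+VCR, 37.6, 55.2 and 57.3 in PTPN21+DMSO and 54.1, 61.9 and 59.2 in PTPN21+VCR. Its level in each PTPN21 group lay below that of the NC group with the same treatment, but neither difference passed. The log2 fold change was -0.55 under DMSO (limma adjusted p = 0.0708) and -0.35 under VCR (limma adjusted p = 0.315).

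The ATG8 family and its receptor had 1 of 5 members higher in NC cells and 3 of 5 higher in PTPN21 cells, with none lower, where 7.91% and 9.22% of all genes were higher. These counts depend on the scaling, since SQSTM1 and GABARAPL2 also passed as higher in NC cells under other scalings, as given below. MAP1LC3B (ENSG00000140941, chromosome 16 from 87383995 to 87404779 on the plus strand) codes for LC3B, the ATG8 protein most used as a marker of autophagosomes. Its FPKM was 39.8, 30.5 and 13.6 in NC+DMSO, 35.5, 95.0 and 93.9 in NC+VCR, 9.13, 35.1 and 13.2 in PTPN21+DMSO and 95.4, 91.2 and 86.5 in PTPN21+VCR. The values spread widely within 3 groups, and 5 of the 6 VCR libraries lay between 86.5 and 95.4. NC+VCR replicate 1 lay within the range of the DMSO libraries, so the NC groups overlapped, and the PTPN21 groups did not. Its log2 fold change was 2.41 (SE 0.494, limma adjusted p = 0.00370) in PTPN21 cells, and it passed under 22 of 22 alternatives. In NC cells it was 1.38 (SE 0.494, limma adjusted p = 0.0458), passed under 8 of 22 alternatives and ranged from 0.95 to 1.84 when single libraries were left out. The call in NC cells was lost without NC+DMSO replicate 2 or 3, PTPN21+DMSO replicate 3, NC+VCR replicate 2 or 3 or any 1 PTPN21+VCR library (limma adjusted p up to 0.177). MAP1LC3B2, a near-identical copy of this gene, can share its reads, so the division of reads between them is uncertain.

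GABARAPL2 (ENSG00000034713, chromosome 16 from 75566351 to 75577881 on the plus strand), which codes for an ATG8 protein also known as GATE-16, was 58.4, 52.6 and 55.4 FPKM in NC+DMSO, 56.4, 58.2 and 50.5 in NC+VCR, 41.3, 43.2 and 43.9 in PTPN21+DMSO and 69.2, 64.6 and 67.1 in PTPN21+VCR. Both NC groups overlapped, PTPN21+DMSO was below them and PTPN21+VCR above them, with no overlap. The log2 fold change with VCR was 0.63 (SE 0.105, limma adjusted p = 0.000993) in PTPN21 cells, where it passed under 22 of 22 alternatives. In NC cells it was -0.01 (SE 0.105, limma adjusted p = 0.937). There it turned positive under median ratio scaling and quantile normalization, and it passed as higher under 1 of these (limma adjusted p = 0.0342).

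SQSTM1, the cargo receptor p62, was 85.3, 92.9 and 98.2 FPKM in NC+DMSO, 107, 102 and 120 in NC+VCR, 72.0, 82.3 and 72.7 in PTPN21+DMSO and 93.9, 91.4 and 96.9 in PTPN21+VCR. The VCR libraries lay above the DMSO libraries in each cell type. The resulting log2 fold change was 0.31 (SE 0.108, limma adjusted p = 0.0466) in PTPN21 cells and 0.25 (SE 0.108, limma adjusted p = 0.0857) in NC cells, and the first passed under 11 of 22 alternatives and was lost without any 1 PTPN21+VCR library, PTPN21+DMSO replicate 1 or 3, NC+DMSO replicate 1 or 2 or NC+VCR replicate 1 (limma adjusted p up to 0.139). In NC cells SQSTM1 passed as higher under median ratio scaling and quantile normalization only (limma adjusted p = 0.00107 at the lowest). GABARAPL1 had a log2 fold change of 0.61 (SE 0.217, limma adjusted p = 0.0531) in PTPN21 cells, where the groups did not overlap. Reads of GABARAPL1 may also be divided with a near-identical copy, GABARAPL3.

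Subunits of the proton pump moved in different directions. ATP6V1A, the catalytic subunit of the V-ATPase, fell in both cell types. It was 6.64, 6.17 and 7.28 FPKM in NC+DMSO, 2.48, 3.42 and 3.71 in NC+VCR, 6.03, 5.64 and 4.96 in PTPN21+DMSO and 3.56, 3.04 and 3.11 in PTPN21+VCR. All 6 VCR libraries lay below all 6 DMSO libraries. Its log2 fold change was -0.88 (SE 0.185, limma adjusted p = 0.00345) in NC cells and -0.62 (SE 0.185, limma adjusted p = 0.0250) in PTPN21 cells. The first was lost under quantile normalization alone (limma adjusted p = 0.0854), and the second passed under 15 of 21 alternatives, with the lost ones including those without PTPN21+DMSO replicate 1 or 2 or PTPN21+VCR replicate 2 or 3 (limma adjusted p up to 0.0825).

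ATP6V1H, a regulatory subunit of the same pump, was 11.7, 12.4 and 13.7 FPKM in NC+DMSO, 21.6, 17.3 and 20.2 in NC+VCR, 15.3, 10.5 and 14.0 in PTPN21+DMSO and 14.2, 20.8 and 17.0 in PTPN21+VCR. The NC groups did not overlap and the PTPN21 groups did. In NC and PTPN21 cells the log2 fold change was 0.60 (SE 0.182, limma adjusted p = 0.0226) and 0.36 (SE 0.182, limma adjusted p = 0.160). The call in NC cells was lost without NC+DMSO replicate 1, NC+VCR replicate 1 or NC+VCR replicate 3 (limma adjusted p up to 0.0669).

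**Figure D4:**
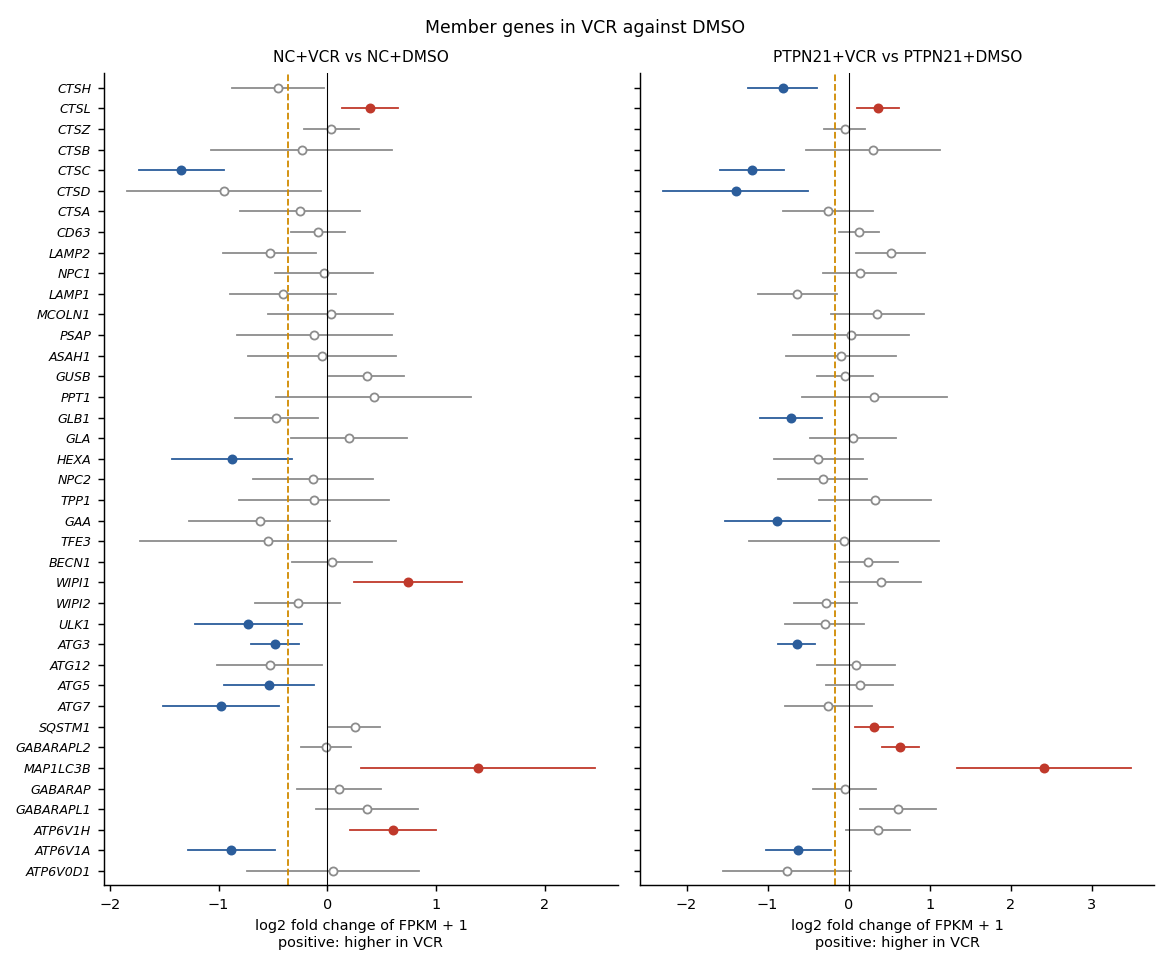
Log2 fold change of FPKM + 1 in VCR against DMSO for the 39 tested members in NC cells (left) and PTPN21 cells (right), with 95% confidence intervals of the limma fit. Filled red points are higher and filled blue points lower at an adjusted p of 0.05, open grey points did not pass, and the dashed line is the median of all genes (-0.36 and -0.17).

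Members with a motif match in the promoter were described beside the tested members that had a window but no match, without a test. ASAH1, ATP6V1A, ATP6V1H, CTSB, HEXA, LAMP2 and PSAP were tested but had no window, and they are left out here. With VCR in PTPN21 cells, 6 of the 7 members with a match had a negative log2 fold change (median -0.64), against 11 of 25 tested members without one (median 0.09). In NC cells 5 of 7 were negative (median -0.41), against 14 of 25 (median -0.03). ATG3, CTSD and GAA, with their matches shown above, passed the threshold as lower in PTPN21 cells, where 19.3% of all genes were lower. Of the 25 without a match, 3 were lower and 4 higher there. In NC cells, 1 of the 7 with a match was lower and 0 were higher. Of the 25 without one, 4 were lower and 3 higher in NC cells, where 28.3% of all genes were lower. MCOLN1 had the only positive value among the 7 in PTPN21 cells, 0.35. Over all genes tested the median was -0.17 in PTPN21 cells and -0.36 in NC cells. These signs are relative to the scaling of the deposited values, and genes outside the members that hold the motif were not compared.

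PTPN21 overexpression was compared with control under DMSO and under VCR. The VCR and DMSO comparisons above use the same libraries, so these values are not independent of them. Under DMSO, 1 of 39 members passed the threshold in limma, against 6.34% of all genes (2.65% higher and 3.69% lower), and 9 of 39 members and 2968 of 11591 genes had an unadjusted p under 0.05. The median over the members was -0.12 and over all genes -0.14, and 12 members did not overlap between the groups, where 33.4% of all genes did not.

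The member that passed was LAMP2, which was 14.6 ± 1.89 FPKM (SD, n = 3) in NC+DMSO and 7.68 ± 1.54 (SD, n = 3) in PTPN21+DMSO. Its log2 fold change was -0.85 (SE 0.196, limma adjusted p = 0.0311). It passed under 14 of 22 alternatives and was lost without NC+DMSO replicate 1 or 3 or PTPN21+DMSO replicate 1 or 3 (limma adjusted p up to 0.132). Next came 4 members that did not overlap between the groups and did not pass. GABARAPL2 had a log2 fold change of -0.37 (SE 0.105, limma adjusted p = 0.0574), and BECN1 one of -0.55 (SE 0.168, limma adjusted p = 0.0708). CTSH had a log2 fold change of 0.63 (SE 0.194, limma adjusted p = 0.0721). NPC2, which binds cholesterol in the lysosome, was 7.79, 8.43 and 5.62 FPKM in NC+DMSO and 14.1, 13.8 and 12.7 in PTPN21+DMSO, with a log2 fold change of 0.83 (SE 0.253, limma adjusted p = 0.0695). CTSL was lower by 0.26 on the log2 scale (log2 fold change -0.26, SE 0.117, limma adjusted p = 0.185).

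Under VCR, 0 of 39 members passed in limma, against 1.82% of all genes (1% higher and 0.82% lower), and 9 members and 1980 of all genes had an unadjusted p under 0.05. The median was 0.02 over the members and 0.03 over all genes. The groups did not overlap for 11 members, where 22.5% of all genes did not. The lowest adjusted p of the members was that of ATG3, at 0.0961, with a log2 fold change of -0.36 (SE 0.103). ATG7 had a log2 fold change of 0.78 (SE 0.245, limma adjusted p = 0.124) and did not overlap between the groups, and ATG5 one of 0.60 (SE 0.190, limma adjusted p = 0.125), with an overlap. CTSL was chosen by the study from these libraries, as 1 of the apoptosis-related genes that it lists as decreased by PTPN21 under VCR. The RT-qPCR of the study covered GADD45A, ATF4 and PARP1, and not CTSL. CTSL had a mean FPKM of 124 ± 7.53 (SD, n = 3) in PTPN21+VCR, below the 153 ± 9.73 (SD, n = 3) of NC+VCR, with no overlap. On the log2 scale the change was -0.29 (SE 0.117, limma adjusted p = 0.227), with an interval from -0.55 to -0.04 before adjustment, and it passed under 0 of 22 alternatives.

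**Figure D5:**
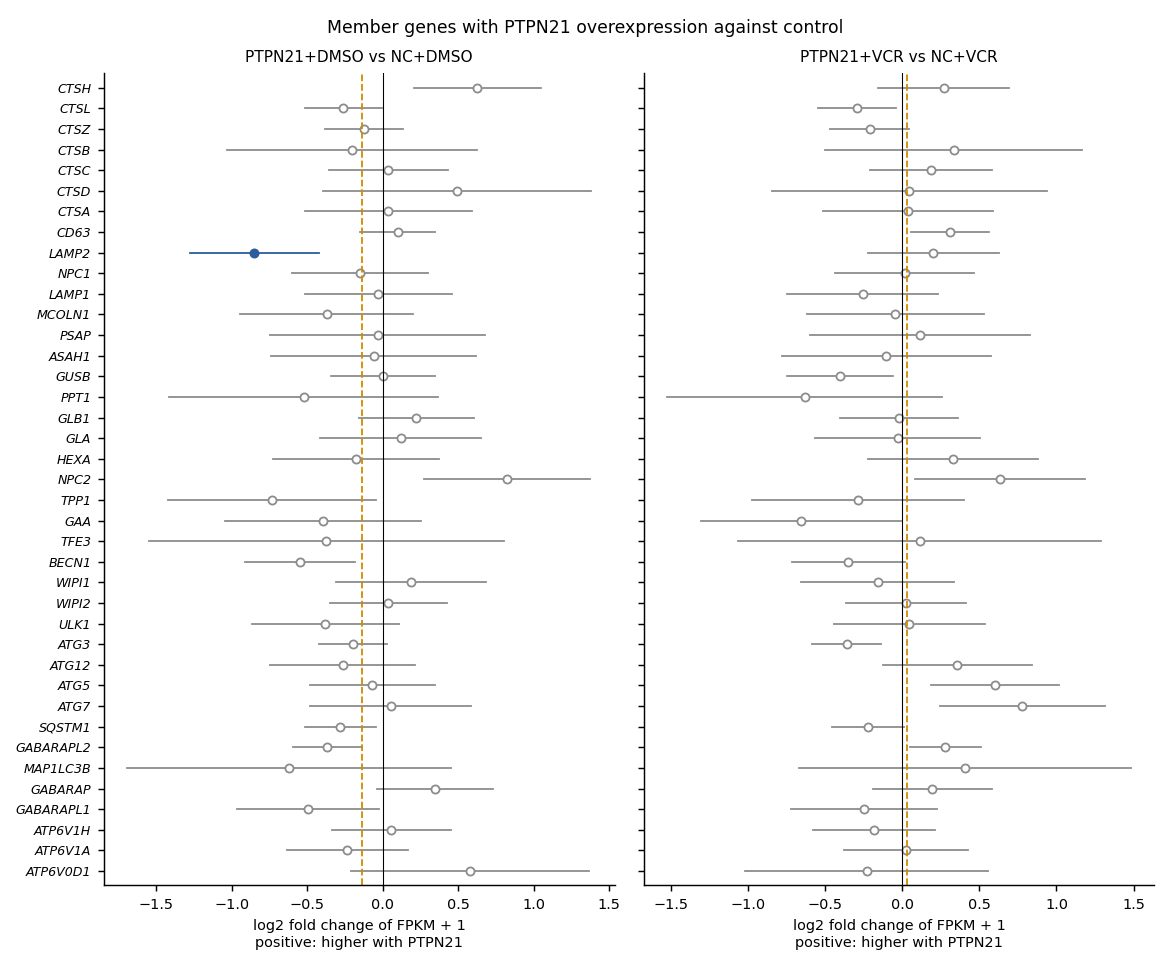
Log2 fold change of FPKM + 1 in PTPN21 cells against NC cells for the 39 tested members under DMSO (left) and VCR (right), with 95% confidence intervals of the limma fit and the median of all genes as a dashed line (-0.14 and 0.03). LAMP2 under DMSO, in blue, is the only member past an adjusted p of 0.05, and no member passed under VCR.

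The difference between the VCR response of PTPN21 cells and that of NC cells was tested as an interaction. In limma 0 of 39 members passed, against 0.129% of all genes (0.0259% higher and 0.104% lower), and 3 members (GABARAPL2, LAMP2 and ATG5) and 1624 of all genes had an unadjusted p under 0.05. GABARAPL2 had a difference of 0.65 on the log2 scale (SE 0.148, limma adjusted p = 0.116), LAMP2 one of 1.05 (SE 0.277, limma adjusted p = 0.169) and ATG5 one of 0.67 (SE 0.268, limma adjusted p = 0.300). The difference for CTSL was -0.03 (SE 0.166, limma adjusted p = 0.952), with an interval from -0.39 to 0.33. Thus members that passed with VCR in 1 cell type only, such as CTSD, ATG7, HEXA and GABARAPL2, were not shown to respond differently in the other.

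Another 128 genes of lysosomes and autophagy, listed by role, were read from the same fit, and 103 of them were tested. With VCR in NC cells 40 passed (38.8%, against 36.2% of all genes), 10 higher and 30 lower. In PTPN21 cells 31 passed (30.1%, against 28.5% of all genes), 14 higher and 17 lower. Both shares were near those of all genes. Median ratio scaling turned these into 16 higher and 9 lower, and 19 higher and 10 lower. Between PTPN21 and NC cells, 7 passed under DMSO (6.80%, against 6.34% of all genes) and 1 under VCR (0.971%, against 1.82%). The counts by role below stand against shares over all genes of 7.91% higher and 28.3% lower in NC cells, and 9.22% and 19.3% in PTPN21 cells.

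Among the ATG8 family and receptor genes of this wider list, 4 of 9 were higher and 3 lower with VCR in NC cells, and 4 were higher and 1 lower in PTPN21 cells. MAP1LC3B2, the copy of MAP1LC3B named above, had log2 fold changes of 1.00 (SE 0.231, limma adjusted p = 0.00598) and 0.93 (SE 0.231, limma adjusted p = 0.0105). The receptor optineurin (OPTN) had 0.84 (SE 0.149, limma adjusted p = 0.00135) and 1.06 (SE 0.149, limma adjusted p = 0.000339). NBR1, another cargo receptor, was 56.5, 58.5 and 56.4 FPKM in NC+DMSO and 13.5, 10.4 and 9.86 in NC+VCR, a log2 fold change of -2.26 (SE 0.512, limma adjusted p = 0.00540). In PTPN21 cells it was 8.31, 55.8 and 54.5 FPKM with DMSO and 30.9, 30.2 and 30.4 with VCR, so these groups overlapped through PTPN21+DMSO replicate 1. The NBR1 log2 fold change there was 0.03 (SE 0.512, limma adjusted p = 0.973), and without that library it was -0.83 (limma adjusted p = 0.00301). The difference between its responses was 2.29 (SE 0.724, limma adjusted p = 0.217), and without the same library it was 1.42 (limma adjusted p = 0.0214).

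Of 13 further initiation genes tested, 3 were higher and 3 lower in NC cells, and 4 were higher and none lower in PTPN21 cells. NRBF2, a subunit of the lipid kinase complex around beclin 1, had the largest rise in each, with log2 fold changes of 1.04 (SE 0.178, limma adjusted p = 0.00109) and 1.34 (SE 0.178, limma adjusted p = 0.000236). MLST8, a subunit of mTOR complexes, fell by 1.59 on the log2 scale (limma adjusted p = 0.000310) in NC cells and by 1.39 (limma adjusted p = 0.000830) in PTPN21 cells. CD68, a glycoprotein of late endosomes and lysosomes, fell by 0.98 (limma adjusted p = 0.000810) and by 1.14 (limma adjusted p = 0.000338). NRBF2, OPTN, MLST8 and CD68 passed under 22 of 22 alternatives in each cell type.

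Among 17 further hydrolases tested, 1 was higher and 6 were lower in NC cells, and 2 were higher and 5 lower in PTPN21 cells. Of 15 further proton pump subunits, 1 was higher and 4 lower in NC cells, and 2 were higher and 3 lower in PTPN21 cells. Of 11 genes of autophagosome fusion, 1 was higher and 4 lower in NC cells, and 1 was higher and 1 lower in PTPN21 cells.

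With PTPN21 under DMSO, ATP6V0E1, a small subunit of the proton pump, rose by 1.01 on the log2 scale (SE 0.200, limma adjusted p = 0.0197), and CSTB, an inhibitor of cysteine cathepsins, rose by 0.93 (SE 0.206, limma adjusted p = 0.0277). IGF2R, the receptor that sorts hydrolases to lysosomes, fell by 1.04 (SE 0.258, limma adjusted p = 0.0378), and AMBRA1, a partner of beclin 1, fell by 0.97 (SE 0.252, limma adjusted p = 0.0430). These calls were lost without 3, 5, 7 and 11 single libraries in turn, in the order named. The gene that passed under VCR was LAMTOR2, part of the complex that anchors mTORC1 to lysosomes, with a log2 fold change of 0.89 (SE 0.201, limma adjusted p = 0.0482), which passed under 7 of 22 alternatives.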

How the data were processed

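RNA from 12 libraries of the line labelled Jurkat was measured, and groups and replicate numbers were taken from the sample labels. The authors deposited FPKM values (fragments scaled by gene length and by library total) for 60671 genes. The submitters' notes name fastp, Bowtie2 and the mouse build mm10, without a role, while the rows are human genes; the counting program and annotation are not given in the sources used here. The kit's strand setting is not stated either, and 23 members share exonic bases with another gene in GENCODE release 29 (22 of them with one on the opposite strand), so reads of such pairs cannot be told apart. Depth was estimated from the steps of FPKM times length in 8706 single-exon genes longer than 500 bases, and the estimate would be off by a factor of 2 if the smallest step stood for 2 fragments.

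Values were taken as log2(FPKM + 1), which understates the change of low genes, and genes averaging an FPKM of 1 or more over the libraries were kept. A linear model of 4 group means was fitted in limma 3.58.1 (R 4.3.3) with an intensity trend, with Benjamini-Hochberg adjustment over 11591 genes and a threshold of 0.05, for 5 comparisons. The fit was also run on simulated data with independent noise and changes in a small part of the genes. That setting lacks the shift over all genes seen here, so it checks the code only. Plots were made in Python 3.11.15 with matplotlib 3.10.9, pandas 2.3.3 and numpy 2.4.6. Values in every library were given for the up to 4 largest rises and falls past the threshold without overlap in each comparison, CTSL, TFEB, TFE3 and the highest member of each role, with further members added after their values were seen; of the wider list, the 2 largest rises and falls were named. The members and lists were chosen with earlier results of these data known. A pseudocount of 0.1, other filters, scalings and moderation, a fit of 2 groups, a replicate block and leaving out each library were tried.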

Additional observations from a re-analysis of the deposited data

Results flagged for a closer look

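LAMP2 was the only member set apart here, because its response to VCR went in opposite directions in the 2 cell types: each NC+VCR library lay below each NC+DMSO library, and each PTPN21+VCR library lay above each PTPN21+DMSO library. The difference between the responses was 1.05 on the log2 scale (SE 0.277, limma adjusted p = 0.169) and did not pass after adjustment over all genes tested. Across 21 alternatives the limma adjusted p of this difference was 0.108 to 0.354. The size of each response depended on the setting. The fall in NC cells ranged from -0.67 to -0.16 over 22 alternatives (limma adjusted p up to 0.529). The rise in PTPN21 cells ranged from 0.38 to 0.71. It passed under median ratio scaling and quantile normalization only (limma adjusted p = 0.0096 at the lowest). PTPN21+DMSO was the group with the lowest LAMP2.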

How the results depend on the processing

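Replicate numbers did not pair the libraries: over 18 pairs the correlation of deviations was -0.145 to 0.0583, none over 0.1. With the replicate block, 0 members and 3 other genes passed for PTPN21 under DMSO, and 0 other genes under VCR; the block ended the calls of LAMP2 under DMSO, and of CTSL and SQSTM1 with VCR in PTPN21 cells.

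The number of members past the threshold with VCR in NC cells was 6 with no filter, 6 with only the 2 groups compared, and 6 to 11 when 1 library was left out, with 6 without NC+DMSO replicate 3 and 7 without NC+VCR replicate 2. In PTPN21 cells it was 6 to 13, with 6 without PTPN21+DMSO replicate 1 or PTPN21+VCR replicate 3 and 7 without PTPN21+DMSO replicate 3 or PTPN21+VCR replicate 2. For PTPN21 under DMSO it was 0 with no filter, 4 with a minimum mean of 5 FPKM, 4 with TPM scaling, 2 with quantile normalization, 0 with only the 2 groups compared, and 0 to 2 when 1 library was left out. Of the other lysosome and autophagy genes, 25 passed with VCR in NC cells under median ratio scaling, 25 under quantile normalization and 25 with only the 2 groups compared, and 27 to 38 when 1 library was left out. In PTPN21 cells 16 to 35 passed when 1 library was left out. For PTPN21 under DMSO 1 passed with no filter, 11 with TPM scaling, 2 without the trend, 1 with only the 2 groups compared, and 0 to 11 when 1 library was left out. Under VCR 0 passed with no filter, median ratio scaling, quantile normalization or without the trend, 3 with a minimum mean of 5 FPKM, 2 with only the 2 groups compared, and 0 to 2 when 1 library was left out. For the interaction it was 0 to 1. The cause was not tested.

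Direction changed only for values that had not passed. In NC cells with VCR, GABARAPL2 was 0.38 under median ratio scaling, 0.18 under quantile normalization and -0.054 to 0.048 when 1 library was left out, and TFE3 was -1.01 to 0.33. In PTPN21 cells ATG5 was -0.034 to 0.34. The interaction of CTSL was 0.057 under TPM scaling, 0.015 under quantile normalization and -0.12 to 0.077 when 1 library was left out. In PTPN21 cells NBR1 was -0.83 to 0.47. Several values that had not passed did so under a few alternatives: with VCR in NC cells, CTSH without PTPN21+VCR replicate 3 (limma adjusted p = 0.0277), under TPM scaling or with 2 groups, and GLB1 without PTPN21+DMSO replicate 3 or NC+VCR replicate 1 (0.0331 at the lowest) and LAMP2 without PTPN21+DMSO replicate 1 or NC+VCR replicate 3 (0.0288 at the lowest), both also under TPM scaling or a minimum mean of 5 FPKM; in PTPN21 cells, LAMP1 without NC+VCR replicate 2 or PTPN21+VCR replicate 1 (0.0313 at the lowest) or without the trend, and GABARAPL1 without NC+VCR replicate 2 or 3 (0.0255 at the lowest), with a minimum mean of 5 FPKM, with 2 groups, or under median ratio scaling or quantile normalization; and for PTPN21 under DMSO, CTSH without PTPN21+VCR replicate 3 (0.0351) or under median ratio scaling, and GABARAPL2 without NC+DMSO replicate 2 (0.0465), under TPM scaling or with a minimum mean of 5 FPKM. Under median ratio scaling or quantile normalization, SQSTM1 and GABARAPL2 in NC cells and LAMP2 and ATP6V1H in PTPN21 cells also passed, each as higher in VCR. For PTPN21 under DMSO, NPC2 and BECN1 passed with a minimum mean of 5 FPKM. NPC2 also passed under quantile normalization (limma adjusted p = 0.0449 at the lowest) and BECN1 under TPM scaling (limma adjusted p = 0.0364 at the lowest). Depth limits mainly genes of low FPKM such as TFEB, ULK1 and GAA.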
